A study of Mus musculus with 2 samples.

Results

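The genes described here are 10 genes of the endothelial surface and of endothelial cell junctions, Cdh5, Pecam1, Esam, Cldn5, Emcn, Robo4, Plvap, Cd34, Tm4sf1 and Egfl7. They were found as the biological probes of the array that carry one of these gene names, which gave 12 of 39429 probes. Cd34 and Plvap had 2 probes each and the other members 1. All 12 probes passed the filter on dim probes, and the 10 genes were among 21574 genes tested. The rule uses no measured value, but the names were picked with earlier results of these arrays known, so the counts below describe these genes and are no independent test of a list.

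The RNA came from E12.5 mouse embryos, wildtype on the NMRI strain and of undetermined sex, whose ureters were explanted onto membranes and kept for 18 h in serum-free medium. The control explants received the solvent DMSO at 2 parts per 1000, and the treated explants received 10 µM BIO, a GSK3 inhibitor that stabilizes beta-catenin and is used to switch on canonical WNT signaling. BIO and control RNA of pooled ureters were hybridized together on each of 2 arrays, with control RNA in AlexaFluor555 (green) and BIO RNA in AlexaFluor647 (red) in replicate 1, and with the dyes exchanged in replicate 2. The comparison asks which genes change in the early ureter when WNT signaling is activated. The p-values, SEs and confidence intervals rest on these 2 pairs of pools only. They are limma's moderated ones, in which each probe's spread is drawn toward a value shared by all probes tested. That value was an SD of 0.162 on the log2 scale, with 7.14 prior degrees of freedom. An SE can therefore be smaller or larger than the 2 arrays of a gene alone would give.

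Endothelial cells line blood vessels and hold together through adherens junctions, built on VE-cadherin, and tight junctions, built on claudins and adhesion molecules of the immunoglobulin family. Their luminal surface carries sialomucins such as CD34 and endomucin, and their permeability is set in part by these junctions and by diaphragms that close fenestrae and caveolae. The ureter primordium consists of an inner epithelium and an outer mesenchyme, and vessels grow within the latter. Such an explant is cut off from the circulation.

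All 10 genes fell with BIO (limma, Benjamini-Hochberg adjusted p below 0.05), where 14.8% of all genes tested fell. Their mean log2 ratios of BIO over control ranged from -2.86 for Tm4sf1 to -1.35 for Esam, with a median of -2.05 beside a median of -0.01 over all genes tested. Each of the 10 was also at least 2-fold lower on both arrays with an intensity of at least 100 in the brighter channel, a rule that 1.47% of 29864 genes with a measured probe met. The log2 ratio was below 0 on both arrays in 10 of 10 members, as in 38.1% of all genes tested. In 10 of 10 the highest BIO signal lay below the lowest control signal, which held for 26.4% of all genes tested. In RNA of whole explants, fewer endothelial cells and less RNA of these genes per endothelial cell cannot be told apart. With the deposited score table, rounded to 1 decimal, in place of the scanner values, 2 of the 10 genes (Pecam1 and Plvap) passed the test, with ratios of the same sign and a median of -2.05.

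Over the whole array 23.9% of the genes tested changed, 3184 falling and 1970 (9.13%) rising, while the score table that the authors deposited gave 1319 and 1929 under the same test. Of the biological spots in replicate 1, 80.9% were well above background with control RNA and 70.1% with BIO RNA. In replicate 2 these shares were 73.7% and 78.1%. The median mean intensity, control first, was 603 and 369 in replicate 1 and 469 and 411 in replicate 2, and 0 spots were saturated. Each of the 12 probes of the members rested on 2 to 4 spots per array, and the number of arrays limits the precision.

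Promoter windows of 6 of the 10 genes were at hand from RefSeq (GRCm38.p6), 8 windows in all because Egfl7 had 3 start sites. Each window holds the 250 bases before the start site. The windows were searched on both strands for motifs of factor families that act in endothelium or in WNT signaling, because the genes moved together. Capitals mark each match to AGGAAG, the core of many ETS sites, or to CTTTGAT, a TCF/LEF motif, on either strand. The windows of Tm4sf1, the gene with the lowest ratio, of Robo4 and Cldn5, and the first of the Egfl7 windows read as follows, 5′ to 3′ in the direction of transcription.
Tm4sf1, chr3:57301989-57302238, minus strand: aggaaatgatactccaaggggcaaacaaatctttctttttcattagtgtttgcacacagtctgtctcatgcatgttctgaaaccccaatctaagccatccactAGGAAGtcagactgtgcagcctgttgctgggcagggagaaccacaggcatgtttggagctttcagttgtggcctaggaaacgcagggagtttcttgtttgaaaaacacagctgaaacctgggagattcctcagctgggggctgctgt
Robo4, chr9:37401722-37401971, plus strand: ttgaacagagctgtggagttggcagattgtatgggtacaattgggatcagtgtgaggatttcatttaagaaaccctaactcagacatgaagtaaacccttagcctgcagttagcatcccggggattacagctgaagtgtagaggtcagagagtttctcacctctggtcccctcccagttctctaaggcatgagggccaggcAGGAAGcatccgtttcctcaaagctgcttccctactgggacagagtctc
Cldn5, chr16:18776597-18776846, plus strand: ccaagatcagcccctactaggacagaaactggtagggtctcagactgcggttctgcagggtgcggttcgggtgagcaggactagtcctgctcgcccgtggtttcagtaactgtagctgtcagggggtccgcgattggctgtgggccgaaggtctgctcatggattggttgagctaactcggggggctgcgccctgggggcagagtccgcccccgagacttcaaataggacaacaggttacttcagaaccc
Egfl7, chr2:26580833-26581082, plus strand: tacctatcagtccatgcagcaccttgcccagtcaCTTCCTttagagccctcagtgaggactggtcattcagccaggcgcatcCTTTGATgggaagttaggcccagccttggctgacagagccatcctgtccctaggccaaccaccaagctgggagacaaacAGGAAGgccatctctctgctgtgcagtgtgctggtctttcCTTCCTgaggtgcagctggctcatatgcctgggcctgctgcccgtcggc

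AGGAAG was found in 6 of the 8 windows, those of Emcn, Robo4, Cd34, Tm4sf1 and 2 of Egfl7, and in 29.5% of 32851 windows of the same length over the genome. In the windows printed above, its last base lay 142 bases before the start site in Tm4sf1 and 44 bases before it in Robo4, and the Egfl7 window held 3 matches. CTTTGAT was found in 1 of the 8 windows, that of Egfl7 printed above, 162 bases before the start, and in 3.21% of all windows. The other motifs searched had 0 matches in the 8 windows, namely the TCF/LEF motif CTTTGAA, held by 1464 of the 32851 windows, the ETS motif CGGAAG (4466 windows), the SOX motif ACAATG (3512 windows), the forkhead motif GTAAACA (1040 windows) and the GATA motif AGATAA (3281 windows). The Cldn5 window, with 59.6% G and C beside a median of 52.4%, held no match to any of these motifs. A match describes letters only.

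For each gene, the processed signal of its brightest probe is given for both channels of both arrays. Signals are in the scanner's intensity units and are compared within a probe only. Probe positions are those of mm9 (NCBI37), and their place relative to exons was not analysed here.

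Among the junction genes, Cdh5 encodes VE-cadherin, the cadherin of endothelial adherens junctions (probe at chr8:106668159-106668218). In replicate 1 its signal was 6420 with DMSO and 888 with BIO, and in replicate 2 it was 7359 and 2147. Control was high and BIO low on both arrays, but the drop was deeper on the first, to 13.8% of control against 29.2%. The mean log2 ratio was -2.32 ± 0.22 (SE, n = 2 arrays, 95% confidence interval -2.82 to -1.82, limma adjusted p = 0.00027), a 5-fold lower level. Cdh5 had the largest difference between the arrays among the 10 genes, 1.08 on the log2 scale, and the fewest spots. Its ratios on the 2 arrays, -2.86 and -1.78, both lay outside the interval, which rests on the moderated SE.

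Cldn5, the main claudin of endothelial tight junctions (chr16:18778046-18778105), read 4343 for DMSO and 842 for BIO on the first array, against 5459 and 1586 on the second. The BIO signals did not reach the control signals. Averaged over the arrays, the log2 ratio was -2.07 ± 0.14 (SE, n = 2, limma adjusted p = 8.48e-05), 4.2-fold lower.

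Pecam1 (CD31), an immunoglobulin-family protein at contacts between endothelial cells that platelets and leukocytes also carry (chr11:106540864-106540923), gave 1975 and 438 in replicate 1 and 2771 and 653 in replicate 2, control first. BIO left 22.2% and 23.6% of the control signal, so both arrays gave almost the same ratio. Its mean log2 ratio was -2.13 ± 0.11 (SE, n = 2, limma adjusted p = 3.18e-05), 4.39-fold lower, with a difference between the arrays of 0.08, the smallest of the 10.

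Esam, an adhesion molecule of endothelial tight junctions and of platelets (chr9:37345795-37345854), was at 2604 in control and 911 in BIO RNA of replicate 1, and at 3254 and 1430 in replicate 2. It kept the largest share of its control signal of all members, 35% and 43.9%. This gave a mean log2 ratio of -1.35 ± 0.13 (SE, n = 2, 95% confidence interval -1.64 to -1.06, limma adjusted p = 0.000262), 2.55-fold lower. Esam thus still lay at rank 287 from the lowest of the 21574 genes.

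The sialomucins of the luminal surface followed. Cd34, which also marks blood progenitors, had a bright probe (chr1:196787392-196787451) with 4196 and 811 in replicate 1 and 4874 and 1690 in replicate 2, control first. On this probe BIO was low on both arrays, at 19.3% and 34.7% of control, with a mean log2 ratio of -1.95 ± 0.19 (SE, n = 2, limma adjusted p = 0.000339). The dimmer Cd34 probe (chr1:196785280-196785339) gave 323 and 87.5, then 409 and 142, with a mean log2 ratio of -1.56 ± 0.12 (limma adjusted p = 0.000123). Both Cd34 probes therefore fell, 3.86-fold and 2.96-fold.

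Emcn, encoding endomucin of venous and capillary endothelium (chr3:137086389-137086448), was at 2578 in control and 439 in BIO RNA of replicate 1, and at 2795 and 914 in replicate 2. The control signals were close to each other and the BIO signals were not, so that the arrays differed by 0.96 on the log2 scale. The mean log2 ratio was -2.07 ± 0.20 (SE, n = 2, limma adjusted p = 0.000303), 4.2-fold lower.

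Plvap, the protein of the diaphragms of fenestrae and caveolae, was read by a pair of probes. The brighter one (chr8:74021877-74021936) gave 599 and 181 in replicate 1 and 736 and 193 in replicate 2, control first, with a mean log2 ratio of -1.77 ± 0.11 (SE, n = 2, limma adjusted p = 5.29e-05), 3.42-fold lower. The second probe (chr8:74030739-74030798) gave 234 and 163, then 299 and 232, which is 69.9% and 77.4% of control. Its mean log2 ratio was -0.51 ± 0.11 (95% confidence interval -0.77 to -0.25, limma adjusted p = 0.0145), 1.42-fold lower. The 2 Plvap probes agreed in direction and not in size, since the interval of the brighter one ran from -2.02 to -1.52. Spots of the second probe also scattered most of all 12 probes, with an SD of 0.299 on the log2 scale in replicate 2.

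Robo4, the endothelial member of the roundabout receptors (chr9:37221547-37221606), read 3568 for DMSO and 691 for BIO on the first array, against 4456 and 1400 on the second. BIO left 19.4% and 31.4% of control. This gave a mean log2 ratio of -2.02 ± 0.16 (SE, n = 2, limma adjusted p = 0.000145), 4.05-fold lower.

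Tm4sf1, a tetraspanin-like surface protein of angiogenic endothelium and of some epithelia and tumor cells (chr3:57091569-57091628), gave 1727 and 195 in replicate 1 and 2001 and 299 in replicate 2, control first. It kept 11.3% and 15% of the control signal, the least of the 10 genes. The mean log2 ratio was -2.86 ± 0.12 (SE, n = 2, 95% confidence interval -3.14 to -2.58, limma adjusted p = 2.65e-05), 7.26-fold lower, which placed Tm4sf1 at rank 6 from the lowest of all genes tested.

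Egfl7, a secreted protein that endothelial cells lay down in the vessel matrix (chr2:26448142-26448201), was at 1937 in control and 557 in BIO RNA of replicate 1, and at 2589 and 1015 in replicate 2. BIO was at 28.8% and 39.2% of control. Averaged over the arrays, the log2 ratio was -1.58 ± 0.15 (SE, n = 2, limma adjusted p = 0.00027), 2.99-fold lower. An Egfl7 intron is the host of miR-126, the best known miRNA of endothelium, which the arrays were not read for here. Its mature strand, with the seed (bases 2 to 8) in capitals and at chr2:26591402-26591423 on the plus strand of GRCm38.p6 in RefSeq, is shown because it leaves the same primary transcript.
mmu-miR-126a-3p: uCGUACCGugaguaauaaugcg

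**Figure D1:**
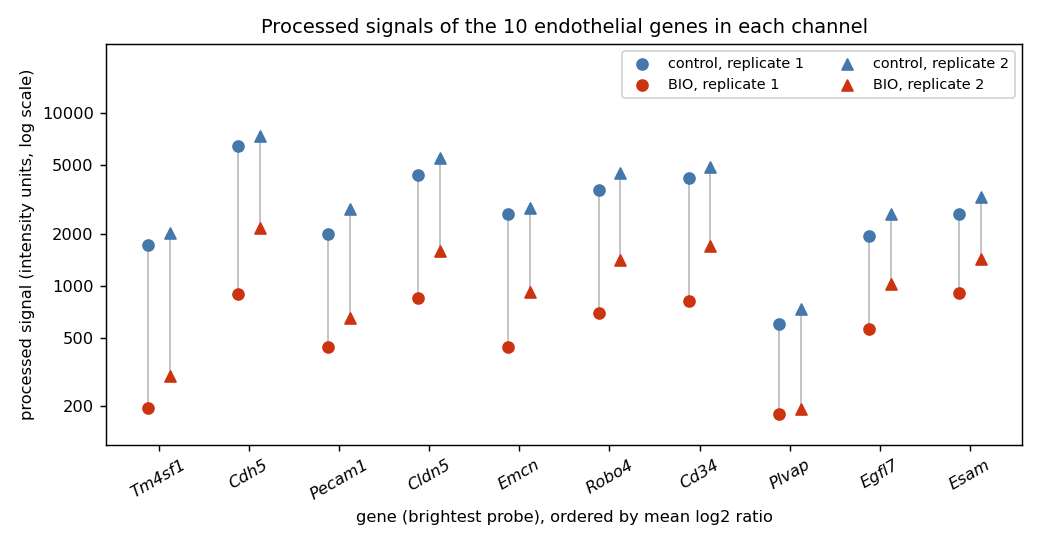
Processed signals of the brightest probe of each of the 10 genes (intensity units, log scale), control in blue and BIO in red, with circles for replicate 1 and triangles for replicate 2; grey lines join the 2 channels of an array. Control signals lie between 599 and 7359 and BIO signals between 181 and 2147, and in each gene both BIO points lie below both control points.

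Ordered by the mean log2 ratio, the genes ran from Tm4sf1 through Cdh5, Pecam1, Cldn5, Emcn, Robo4, Cd34, Plvap and Egfl7 to Esam. No gene was separated from its next neighbor in this order on the values of the 2 arrays. Of 45 pairs of members, 16 had array values that did not overlap, and in 28 the order was the same on both arrays. Tm4sf1 lay below all other members except Cdh5 in this sense, and Esam lay above all except Cd34 and Egfl7. Pecam1 lay also below Plvap and Egfl7. These orders are a description of 2 arrays and were not tested.

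**Figure D2:**
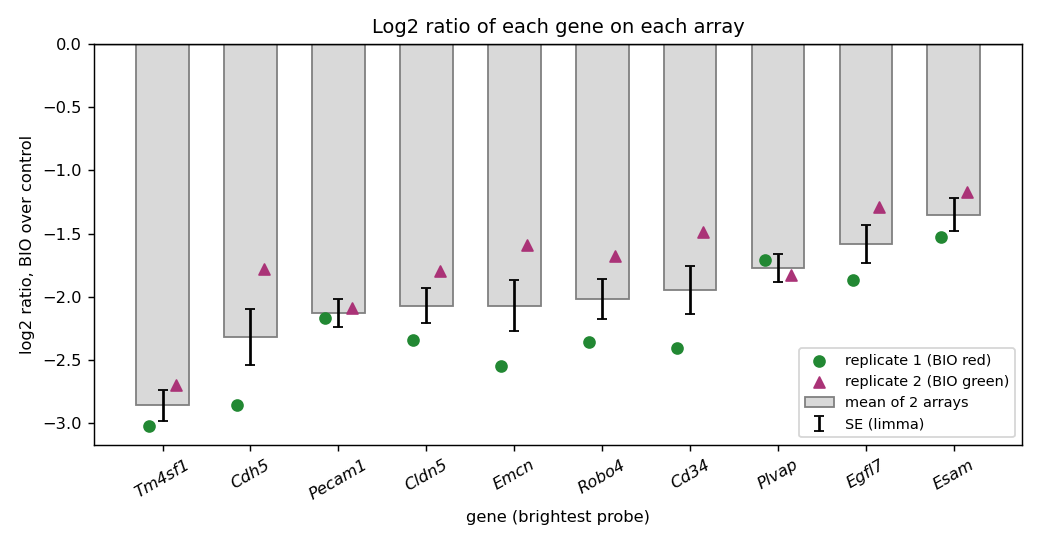
Log2 ratio of BIO over control of the brightest probe of each gene in replicate 1 (green circles, BIO RNA in red) and replicate 2 (purple triangles, BIO RNA in green), with the mean as a bar and its SE from limma as a whisker. All values lie below 0, and in 9 of 10 genes replicate 1 lies below replicate 2.

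The 2 arrays differed in how far the genes fell. The ratio was more negative in replicate 1 for 9 of 10 members, Plvap being the exception with -1.71 and -1.83, and the median over the members was -2.35 in replicate 1 and -1.73 in replicate 2. Of all genes tested, 58.6% were more negative in replicate 1, and of the 277 other genes whose mean was at or below that of Esam, 87% were. The median difference between the arrays was 0.56 for the members, 0.32 for these 277 genes and 0.16 for all genes tested. Processed signals were higher in replicate 2 in both channels for 10 of 10 members. The same held for the reference genes Gapdh, Ppia, Hprt and Tbp, and for Actb with control RNA only. It is therefore not particular to the members, and the share over all genes tested is not given here. Dye orientation and pool changed together between the arrays, so their parts in this difference cannot be told apart. The channels were also less alike in replicate 1, with a median mean intensity of 603 for control and 369 for BIO. In replicate 2 these were 469 and 411, and the part of channel brightness in the difference was not tested.

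**Figure D3:**
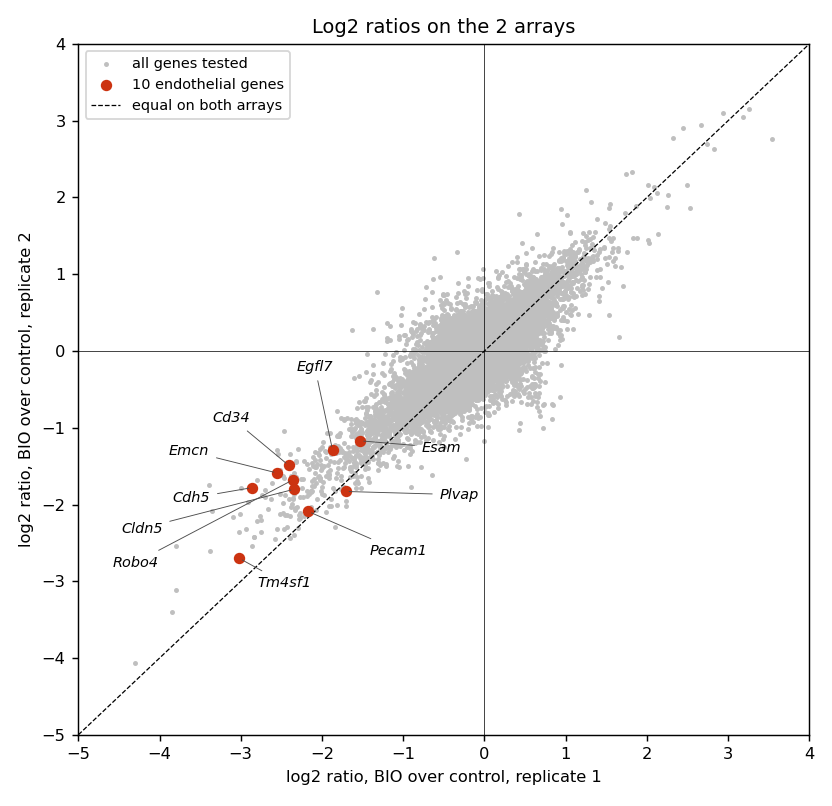
Log2 ratio of BIO over control in replicate 1 (x axis) and replicate 2 (y axis) for the 21574 genes tested (grey) and the 10 endothelial genes (red, labelled); the dashed line marks equal ratios. The 10 genes lie at the lower left end of the cloud, with 7 of them among the 100 genes with the lowest means, and 9 of them above the dashed line.

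Other genes of endothelial cells were read from 2 further lists. Of 18 further endothelial surface genes, 16 fell and 2 were not called, with a median log2 ratio of -1.51. The lowest was Thbd, the thrombomodulin of the luminal surface, at -2.63 ± 0.15 (SE, n = 2, limma adjusted p = 4.47e-05), with signals of 677 and 70.6 in replicate 1 and 902 and 167 in replicate 2. The highest of the genes that fell was Stab1, a scavenger receptor of sinusoidal endothelium and macrophages, at -0.59 ± 0.13 (adjusted p = 0.0143). Mcam, which mural and other mesenchymal cells also carry, was at -0.30 ± 0.13 (adjusted p = 0.121). Vwf, the von Willebrand factor of mature endothelium, was dim in all channels, with 35.9 and 34.2 in replicate 1 and 49.4 and 55.3 in replicate 2, and was at -0.03 ± 0.11 (adjusted p = 0.895).

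Of 15 endothelial receptors and transcription factors, 15 fell, with a median of -1.56. Sox7, an endothelial SOX factor, was lowest at -2.72 ± 0.25 (limma adjusted p = 0.000241), and Flt4, the receptor for VEGF-C, was highest at -0.62 ± 0.11 (adjusted p = 0.00492). Flt4 was dim, with 32.1 and 11.6 in replicate 1 and 44 and 18 in replicate 2, and was well above background with BIO on 1 of 2 arrays. Erg, at -0.67 ± 0.13 (limma adjusted p = 0.00708), was dimmer, with 23.5 and 3.4 in replicate 1 and 23.6 and 9.63 in replicate 2. It too was well above background with BIO on 1 of 2 arrays. Flt4 and Erg met the filter on dim probes through the control RNA only, so their part in the count is limited.

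The junction partners were proteins of the junction membrane, proteins that anchor junctions and proteins that regulate them. They are not a list free of endothelial genes, since Rasip1 is among them. Of the 18 junction partners, 8 fell and 10 were not called, with a median of -0.34. The count that fell was 3 when arrays were centered on their median instead of by loess, 5 from the software's processed signals and 4 from the deposited scores. Over all genes tested, 3184 fell, and 1939, 2074 and 1319 did under these alternatives in the same order. Rasip1, an effector of the GTPase RAP1 that is best known from endothelial junctions, was lowest at -1.38 ± 0.11 (limma adjusted p = 0.000133), with 1101 and 425 in replicate 1 and 1364 and 531 in replicate 2. Rap1b, a RAP1 GTPase, was the highest of those that fell at -0.39 ± 0.11 (adjusted p = 0.0409). Rap1a, another RAP1 GTPase in the list, was at -0.30 ± 0.11 (adjusted p = 0.0862) and was not called. Named after their values were seen, Ctnnb1, the beta-catenin that binds the tail of VE-cadherin and also carries the WNT signal, was at -0.63 (adjusted p = 0.00595), and Vcl, the vinculin of strained junctions, at -0.85 (adjusted p = 0.00111). Ocln, the occludin of tight junctions, was at -0.12 (adjusted p = 0.482).

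Of 20 relatives of the members from the same gene families, or ligands of the roundabout receptors, 6 fell, 1 rose and 13 were not called, with a median of -0.16. Slit3, a ligand of roundabout receptors, was lowest at -1.10 ± 0.11 (limma adjusted p = 0.000316), and Slit2, another, was the highest of those that fell at -0.38 ± 0.11 (adjusted p = 0.0404). Cxadr, an adhesion molecule of epithelial tight junctions, rose by 0.88 ± 0.11 (adjusted p = 0.00096), from 4018 to 7437 in replicate 1 and from 4104 to 7666 in replicate 2. By family, and named after their values were seen, the epithelial cadherin Cdh1 was at -1.04, the neural cadherin Cdh2 at -0.13, the epithelial claudins Cldn3, Cldn4, Cldn6 and Cldn7 between -0.32 and -0.06 without passing the test, the junctional molecule F11r at -0.96, the sialomucin Podxl at -0.82, and the roundabout receptors Robo1 and Robo2 at 0.01 and -0.46. Of these, Cdh1, F11r, Podxl and Robo2 passed the test. The relatives not yet named did not pass it, with Jam2 at 0.06, Jam3 at 0.18, Podxl2 at -0.20 and Cdh11 at -0.22. Tm4sf4 was at -0.32, Tm4sf5 at 0.15 and Egfl8 at 0.12.

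Markers of other cells in the explant moved to different extents, and their part in the fall of the 10 genes was not tested. Summed over the 10 members, the processed signal went from 29947 to 5953 in replicate 1 and from 36294 to 11327 in replicate 2. Such a sum over a list is weighted toward its brightest probes. Of 8 mural cell markers, 6 fell, with a median of -0.92 and summed signals of 24939 and 13232 in replicate 1 and 27555 and 15407 in replicate 2. Pdgfrb, the PDGF receptor of pericytes and mesenchyme, was lowest at -2.17 ± 0.15 (limma adjusted p = 7.91e-05) and Anpep, an aminopeptidase of pericytes, the highest of those that fell at -0.63 ± 0.11 (adjusted p = 0.00451). Cspg4 and Notch3 were not called, at -0.23 (adjusted p = 0.178) and 0.34 (adjusted p = 0.0525).

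Of 7 macrophage markers tested, 4 fell, with a median of -0.44 and summed signals over the 8 listed of 5226 and 3249 in replicate 1 and 6100 and 4950 in replicate 2. Those that fell were Cx3cr1 at -1.75, Aif1 at -0.79, Csf1r at -0.64 and C1qa at -0.44 (limma adjusted p = 0.0493), while Mrc1 was at 0.08, Adgre1 at -0.04 and C1qb at -0.32 without passing the test. Fcgr1 was too dim to be tested. Of 7 blood cell markers, 2 fell, Ptprc at -0.78 and Spi1 at -0.71, and 1 rose, the platelet gene Pf4 at 2.03 ± 0.14 (adjusted p = 9.72e-05), from 572 to 2104 and from 711 to 3570. The globins Hbb-bh1 and Hba-x and the platelet genes Itga2b and Gp9 were between -0.37 and -0.10 and were not called. Gp9 was not well above background with BIO on any array. Itga2b was dim as well, with 17.1 and 16.6 in replicate 1 and 25.2 and 18.8 in replicate 2, control first. The summed blood cell signals were 30563 and 29784 in replicate 1 and 31271 and 25401 in replicate 2. These sums mostly follow the globins, since Hba-x was at 19308 and Hbb-bh1 at 10505 in control RNA of replicate 1.

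Of 8 ureteric mesenchyme markers, 4 fell, from Pdgfra at -0.79 through Aldh1a2 at -0.61 and Bmp4 at -0.51 to Col1a1 at -0.44, and Tbx18, Tbx2, Tbx3 and Foxf1 were not called, at -0.22, 0.01, 0.34 and -0.16. The median was -0.33, and the summed signals were 195655 and 142166 in replicate 1 and 203899 and 164707 in replicate 2. Each of the 8, which define the labelled tissue, was well above background in both groups, and with median centering 1 of them fell. Of 8 ureteric epithelium markers, 6 fell, from Krt19 at -1.24 to Shh at -0.43, with a median of -0.80 and summed signals of 81895 and 46230 in replicate 1 and 82616 and 55783 in replicate 2. Epcam at 0.02 and Gata3 at -0.10 were not called. Tested by limma on the deposited scores, 0 of the epithelium, mesenchyme and macrophage markers fell, against 4, 3 and 1 at an unadjusted p below 0.05, and of the mural markers 2 fell and 1 rose. Among 5 reference genes 1 fell, Actb at -0.55 (limma adjusted p = 0.024), and Gapdh, Ppia, Hprt and Tbp were at 0.27, -0.16, -0.29 and 0.17. Their median was -0.16, and 0.16 with median centering, so it changed sign with the scaling.

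**Figure D4:**
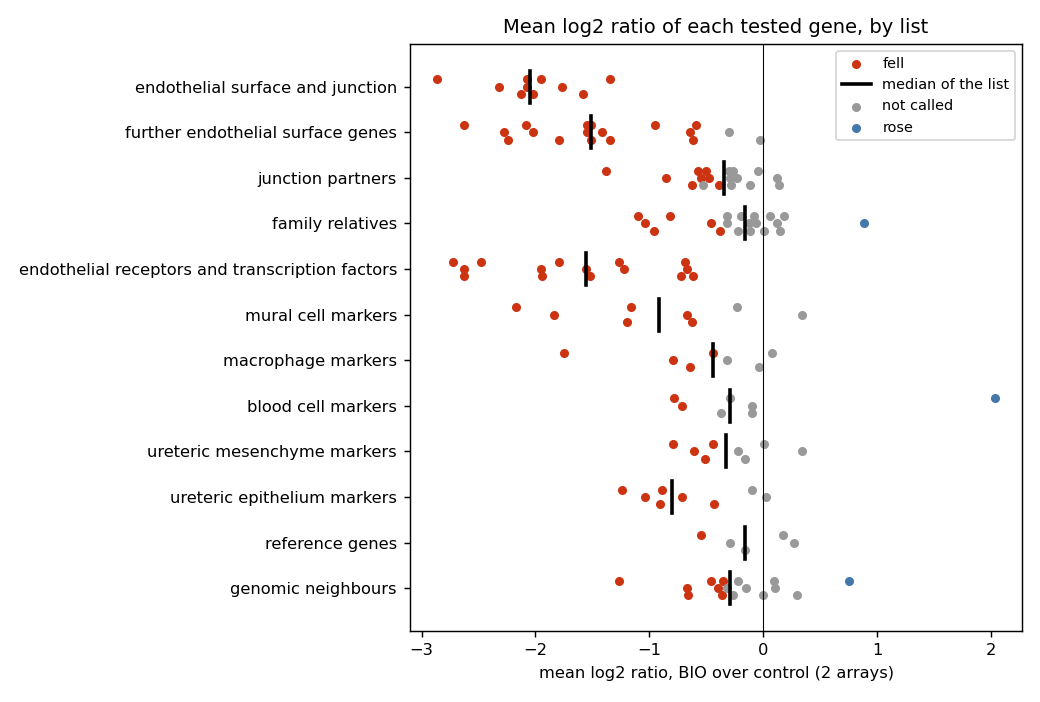
Mean log2 ratio of BIO over control (x axis) of each tested gene in the 10 endothelial genes and in each further list (rows), in red where the gene fell, blue where it rose and grey where it was not called by limma; black bars are list medians. The median is -2.05 for the 10 genes, -1.51 and -1.56 for the other endothelial lists, and between -0.92 and -0.16 for the remaining lists.

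The genes next to the members on the chromosome were read to describe their surroundings. The nearest protein-coding gene on each side of each member gave 20 genes, of which 16 were tested, 7 fell and 1 rose, with a median of -0.30. Vsig2, next to Esam and of the same immunoglobulin group, was lowest at -1.27 ± 0.13 (limma adjusted p = 0.000332), and Milr1, next to Pecam1, was the highest of those that fell at -0.35 (adjusted p = 0.0496) on its brightest probe, while the dimmest of its 3 probes was at -0.19 (adjusted p = 0.256). Cdc45, a replication gene next to Cldn5, rose by 0.75 ± 0.12 (adjusted p = 0.00303), from 1173 to 1902 and from 1159 to 2155, while Septin5 on the other side of Cldn5 was at -0.67 (adjusted p = 0.0168). Notch1 and Agpat2, on either side of Egfl7, were at 0.09 (adjusted p = 0.587) and -0.36 (adjusted p = 0.0451), and both neighbors of Robo4, Robo3 and Hepacam, were too dim to be tested. The neighbors of Cdh5 were Cdh11, at -0.22 (adjusted p = 0.206), and Bean1, at -0.66 (adjusted p = 0.00372).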

How the data were processed

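Per the submitters' processing notes, the authors quantified the 2-color Agilent arrays with Agilent Feature Extraction 10.7.3.1. The deposited scanner tables give mean and local background intensities per spot without normalization, processed signal intensities that the software had background-subtracted and dye-normalized, and spot flags. The authors also deposited a table with 1 score per probe and array. Its making is not stated, and it tracked the ratio of BIO to control on a linear scale with a sign. The authors' own ratio and p-value columns were not used.

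The computations were done in R 4.3.3 with limma 3.58.1. Background was removed from the mean intensities by normexp (offset 50), and each array was normalized by loess. Control and outlier spots had weight 0 and were then left out, 3.49% and 3.16% of the biological spots being outliers. Ratios were averaged over the remaining spots. A probe was tested when it was well above background, in over a share of 0.5 of its spots, in the same RNA on both arrays, which held for 28824 probes. After the sign of replicate 2 was turned, limma's moderated test (lmFit, eBayes) compared the log2 ratios with 0 on both sides, and p-values were adjusted by Benjamini-Hochberg over all probes tested. No dye term was fitted, since 2 arrays leave no degree of freedom for it, and both arrays had 1 scan time. A gene was represented by its brightest probe. The 2-fold rule is the one used by the study for other arrays. Here it was run on processed signals with a floor of 15. The log2 ratios of each array were first centered on their median, a step the study does not state.

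The script was tested on simulated data. The members, the lists and the motifs were chosen with earlier results of these data known. Named genes were the members, of each other list the called genes with the lowest and the highest ratio and those behind counts of 5 or fewer, and the nearest protein-coding neighbors in the RefSeq gene table of GRCm38.p6. One of the 8 genes first put in the blood cell list is not reported here, and the values of that list cover the other 7. The alternatives were the software's processed signals, median centering, an offset of 16, no filter on dim probes, outlier spots kept, the mean over the probes of a gene, the score table, other fold and intensity limits, and each array alone.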

Additional observations from a re-analysis of the deposited data

How the results depend on the processing

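Under 7 alternatives with a test, 62 of 70 values of the 10 genes kept their call, 0 reversed, and the log2 ratios stayed between -2.98 and -1.14. The 8 lost calls all came with the deposited score table, where 2 of 10 members fell, beside 1319 of all 21574 genes tested. With it 1 of 18 further endothelial surface genes, 4 of 18 junction partners and 1 of 20 family relatives fell. Of the 15 endothelial receptors and transcription factors 1 fell. At an unadjusted limma p below 0.05 there, 7 members, 11 further surface genes, 9 junction partners, 5 relatives and 12 receptors and factors fell. So did 2996 of all genes tested. Outside the score table the highest adjusted p of a member was 0.0136, with the processed signals. Of the junction partners, 5 fell with the processed signals and 3 with median centering, against 8. Over all 21574 genes tested, 2074 and 1939 fell there, against 3184. Of the macrophage markers, 2 fell with the processed signals, against 4. The cause was not tested. With 1 array there is no test, and the members' median was -1.73 without replicate 1 and -2.35 without replicate 2, and between -2.11 and -2.05 under the other alternatives. At a limit of 3-fold on both arrays, 7 members were lower, and the share of all genes at that limit is not given here. Probes with low signal over background are pulled toward 0 by the offset. The analysis was paired by array, because each array holds 1 control and 1 BIO pool and gives 1 ratio, so the pairing is part of the values.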
